A study of Homo sapiens with 2 samples.

Results

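Caveolae are small flask-shaped pits of the plasma membrane, and the genes described here encode their coat, their neck and the related flotillin domains. The members are 10 genes: the caveolins CAV1 and CAV2, the cavins CAVIN1, CAVIN2 and CAVIN3, the neck and membrane-bending proteins EHD2, PACSIN2 and PACSIN3, and the flotillins FLOT1 and FLOT2. They were named by function, and their choice was made with the large CAV1 difference on these same arrays known, so the members are in part chosen by the values reported below, which are therefore a description with no test. Every probe set whose only gene symbol is one of these names was taken, which gave 24 of 54613 compared probe sets and 10 of 19775 genes. No probe set with several symbols held a member.

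The samples were QGP1 cells, an established human cell line from a pancreatic neuroendocrine tumour. One group was QGP1 cells with high aldehyde dehydrogenase (ALDH) activity, a property used to enrich for stem-like tumour cells, obtained by fluorescence-activated sorting. The other was control QGP1 cells. The same sorting sentence stands in the records of both samples, and whether the control cells themselves passed through the sorter is not stated. No other treatment is named for either group, and each group had 1 Affymetrix array, so no difference has a replicate check and no p-value is given.

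A level is a log2 value made by RMA, and a difference is ALDH high minus control on that scale. A difference of 1.0 is 2-fold, the threshold the series description applies. Probe sets of a single gene recorded differences that varied with a pooled SD of 0.23 over 10523 genes with several probe sets, the value used below. Over the 8 members with several probe sets it was larger, at 0.32, and over probe sets reaching the median level it was smaller, at 0.19. The pooled SD serves as a scale of the spread between probe sets only. It does not cover an error shared by the probe sets of an array, or the spread between cultures or sorts. The median of all levels was 5.68, and a probe set below it on both arrays is called dim, because such a level could not be told from absence. Where a gene has several probe sets, its value is that of the brightest by the mean of both arrays. Apart from percentiles and the summed levels of markers, levels of different probe sets are not set against each other, since each depends on its own probes.

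Caveolin 1 is the main structural protein of caveolae and assembles into membrane-inserted oligomers, and caveolin 2 joins these oligomers and depends on caveolin 1 to leave the Golgi. Cavins coat the caveolin-rich membrane from the cytosolic side, and CAVIN1 is required for caveolae to form in most cells. EHD2 is a membrane-binding ATPase that holds the neck of the pit, and PACSIN proteins bend membrane through an F-BAR domain. Flotillins belong to the SPFH family of membrane scaffold proteins and form domains that are separate from caveolae.

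CAV2 and CAV1 lie side by side on the plus strand of chromosome 7 in the RefSeq annotation of assembly GRCh38.p14, with 0 measured genes between them, and their first listed starts are 25271 bases apart. The 250 bases before the first listed start of each gene are shown because these neighbours are the 2 members over 2-fold higher in ALDH-high cells. The CAV1 window is chr7:116524759-116525008 and the CAV2 window is chr7:116499488-116499737. Both are written on the plus strand, and capitals mark the motif GGGCGG, the core of the GC box, on either strand.
CAV1: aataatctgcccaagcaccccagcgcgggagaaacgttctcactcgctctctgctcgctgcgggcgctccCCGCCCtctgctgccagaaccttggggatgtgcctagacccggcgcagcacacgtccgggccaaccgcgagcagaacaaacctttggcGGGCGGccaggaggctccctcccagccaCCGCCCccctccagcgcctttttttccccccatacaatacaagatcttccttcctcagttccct
CAV2: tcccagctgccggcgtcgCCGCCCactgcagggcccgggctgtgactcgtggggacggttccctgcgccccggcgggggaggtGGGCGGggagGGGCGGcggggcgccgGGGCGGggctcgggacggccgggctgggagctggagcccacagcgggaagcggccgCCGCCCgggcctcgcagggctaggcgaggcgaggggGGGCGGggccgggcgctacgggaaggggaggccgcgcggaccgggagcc

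The CAV1 window held 3 matches to GGGCGG and the CAV2 window 6, of which none overlapped another. At least 1 match was present in 42.6% of 35116 RefSeq promoter windows of this length. The CAV1 window had 18 CpG dinucleotides and 63.6% G and C, and the CAV2 window had 35 CpG and 83.2%, against medians of 11 CpG and 58% over all windows. By GC content the CAV1 window stood at percentile 64.4 and the CAV2 window at percentile 99.1. Later listed starts gave other values: the other CAV1 windows stood at percentiles 63.4 and 86.9 with 3 and 2 matches to GGGCGG, and the other CAV2 window at percentile 80.1 with 3 matches. The motifs CCAAT (in 32.01% of windows on either strand), TATAAA (10.7%) and CAGGTG, an E-box form bound by SNAI2 (17.5%), had 0 matches in both windows. Windows of 7 members were in the table, and the 0 to 8 GGGCGG matches among them were highest in FLOT1, a gene that was not higher in ALDH-high cells. None of these matches is evidence of a factor bound there.

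CAV1 had the largest difference on the arrays. On its brightest probe set the level was 10.07 in ALDH high and 5.21 in control, and on the other it was 9.64 in ALDH high and 4.43 in control. Both probe sets were therefore high on the ALDH-high array and dim on the control array. The differences were 4.86 (29.1-fold) and 5.20 (36.8-fold), which rank second and first from the top among 54613 probe sets, and no probe set within 0.5 of either mean level differed by as much. The probe sets disagreed by 0.34, while the difference of the main one was 21.3 times the pooled SD between probe sets. The control levels stood at percentiles 41.5 and 28.4 of that array and the ALDH-high levels at 92.5 and 90.0, so the fold depends on a control level that could not be told from absence. With 32 added to the unlogged levels, the differences were 4.004 and 3.95. Since RNA of many cells was pooled on each array, more cells with CAV1 RNA and more CAV1 RNA per cell cannot be told apart.

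The genes whose difference was nearest to that of CAV1, among those reaching the median level on at least 1 array, were KRT14 (3.95), a basal keratin, NT5E (3.62), which encodes CD73, and SNAI2 (3.16), the transcription factor SLUG. Their control levels of 4.33, 3.67 and 2.67 were below the median of all levels, and their ALDH-high levels were 8.29, 7.29 and 5.83. These differences, like that of CAV1, therefore depend on control levels that could not be told from absence, and their order is not firm. With a single difference per gene, likeness here is closeness of that value and nothing more.

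CAV2 was higher in ALDH high by a much smaller amount. Its level on the brightest probe set was 8.55 in ALDH high and 7.54 in control, and on the next it was 7.48 in ALDH high and 6.63 in control. On the remaining one the levels were 4.32 and 4.30, dim on both arrays. The brightest probe set thus differed by 1.01 (2.02-fold), the second by 0.85 (1.80-fold) and the dim one by 0.02. The largest of these was 4.44 times the pooled SD. Of probe sets of like mean level (within 0.5), 1.78% differed by more than the brightest and 3.999% by more than the next. CAV2 stood 89th from the top of 19775 genes, with 87 genes between it and CAV1. CAV2 was no longer over 2-fold as the mean of its probe sets (0.63) or their median (0.85), without probe sets open to shared targets (0.85), with a pseudocount (0.90) or with the arrays centred on the poly-A controls (0.70).

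**Figure D1:**
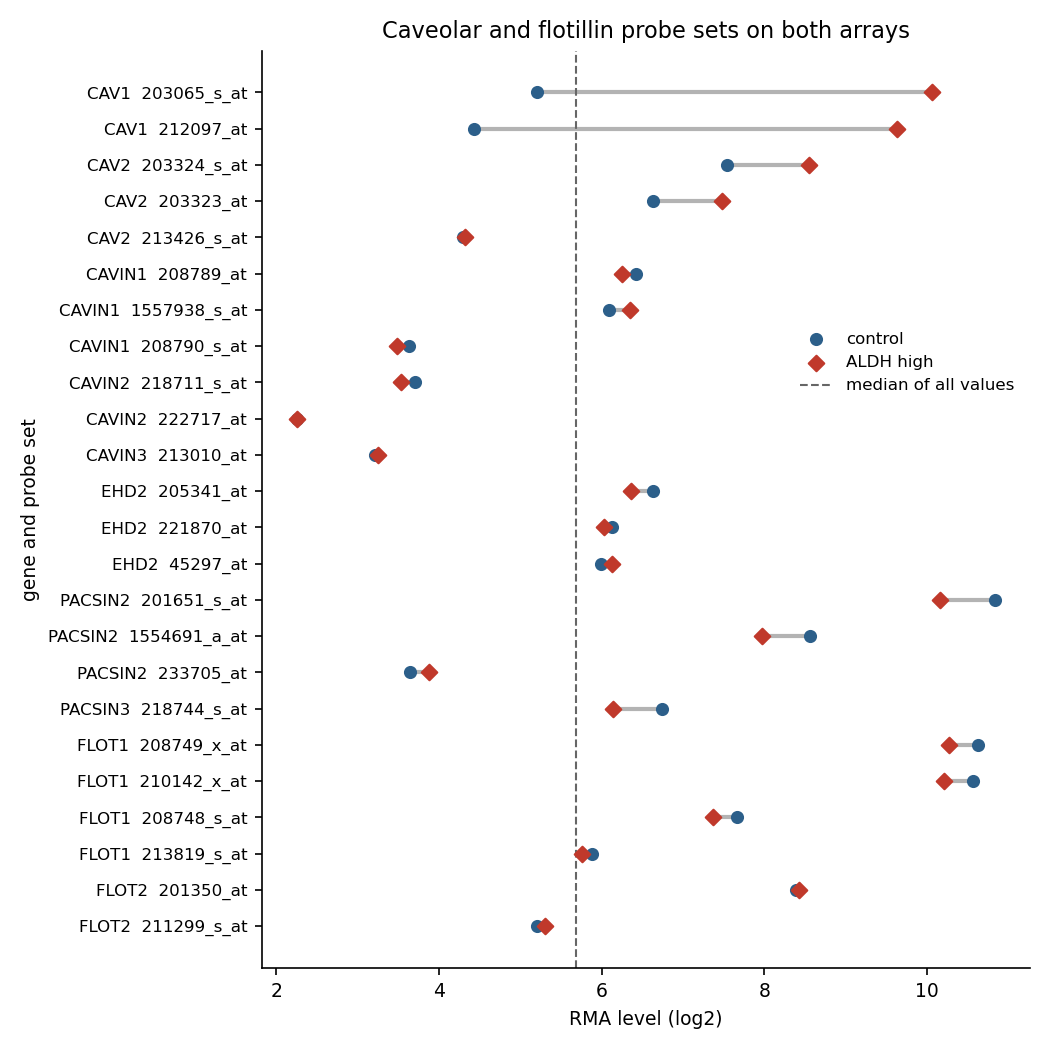
RMA levels (log2, horizontal axis) of the 24 probe sets of the 10 genes, with the control array as blue circles and the ALDH-high array as red diamonds. The dashed line is the median of all values (5.68). Both CAV1 probe sets cross it, from 5.21 to 10.07 and from 4.43 to 9.64, and no other probe set spans a comparable distance.

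None of the 3 cavins differed by more than the pooled SD on its brightest probe set. For CAVIN1, also known as PTRF, the levels in ALDH high and control were 6.25 and 6.42 on the brightest probe set, 6.35 and 6.10 on the next and 3.49 and 3.63 on the dimmest. The array with the higher CAVIN1 level thus changed with the probe set, and the differences were -0.18, 0.25 and -0.14. CAVIN2, also known as SDPR, which shapes the caveolar membrane, had levels of 3.53 in ALDH high and 3.71 in control on its brighter probe set. Its other probe set read 2.25 on both arrays. CAVIN3, which binds protein kinase C delta, had 1 probe set, with levels of 3.25 in ALDH high and 3.22 in control. Both genes were dim on both arrays, at percentile 18.2 or lower, so a difference in their RNA may not have been measurable here. The brightest probe sets of CAVIN1, EHD2 and PACSIN3 were not far above the median, at percentiles from 57.2 to 64.7. Whether RNA of these genes was present was not tested.

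The neck ATPase EHD2 had no common direction over its probe sets. Its levels in ALDH high and control were 6.36 and 6.63, 6.03 and 6.13, and 6.13 and 5.99 on its 3 probe sets. The differences of -0.27, -0.11 and 0.14 did not share a sign, and their mean was -0.08.

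The PACSIN genes were lower in ALDH high by 1.51-fold to 1.60-fold on their brightest probe sets. PACSIN2, an F-BAR protein found at caveolae, had levels of 10.16 in ALDH high and 10.84 in control on its brightest probe set and 7.97 and 8.56 on the next. Both were lower in ALDH high, by differences of -0.68, or 1.60-fold, and -0.59, or 1.51-fold. The remaining probe set, dim on both arrays at 3.88 and 3.64, differed by 0.24. Of probe sets of like mean level, 5.88% and 8.92% differed by more than the first and second. PACSIN3, the family member best known from muscle, had a single probe set with levels of 6.15 in ALDH high and 6.74 in control. It was lower in ALDH high by 1.51-fold (-0.60), and 7.97% of probe sets of like mean level differed by more.

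The flotillins did not share a direction. FLOT1 had levels in ALDH high and control of 10.27 and 10.62, 10.21 and 10.56, 7.37 and 7.67, and 5.77 and 5.88 on its 4 probe sets. All 4 were lower in ALDH high, by differences from -0.36 to -0.11, and the value of the brightest was -0.35 (1.28-fold). Differences larger than this were seen in 22.2% of probe sets of like mean level, and all 4 probe sets carry an ID ending that marks possible shared targets. FLOT2, the partner of FLOT1 in flotillin oligomers, had levels of 8.43 in ALDH high and 8.39 in control on the brighter probe set and 5.30 and 5.20 on the dim one. Its differences of 0.04 and 0.10 were within the pooled SD.

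**Figure D2:**
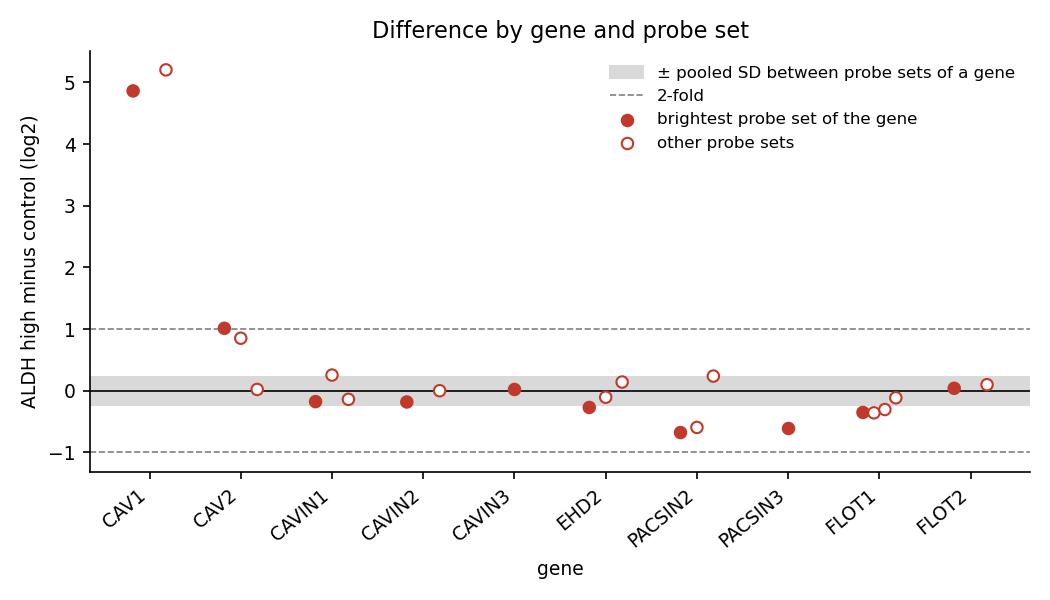
Difference (ALDH high minus control, log2) of each probe set, by gene, with the brightest probe set of a gene filled. The grey band is the pooled SD between probe sets of a gene (± 0.23) and the dashed lines are 2-fold. CAV1 stands at 4.86 and 5.20, CAV2 reaches 1.01, and the other 19 probe sets lie between -0.68 and 0.25.

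As a group, the 10 genes were not shifted together. Only CAV1 and CAV2 were over 2-fold higher (2 of 10, while 0.465% of all genes were), and 0 of 10 were over 2-fold lower (1.23% of all genes). Of the 24 probe sets, 3 were over 2-fold higher (0.403% of all probe sets) and 0 over 2-fold lower (0.842%). Since the choice of members used this contrast, nothing is read from these shares. The median difference of the 10 genes was -0.18, with 4 above 0 and 6 below, whereas their mean was 0.37 because of CAV1. Over all genes the median was -0.01 and 45.6% lay above 0. Without the caveolins the other 8 genes ran from -0.68 to 0.04, with a median of -0.23, and 6 of them lay below 0. Leaving out the 2 highest genes lowers the median by itself. Over all 24 probe sets the median was -0.05, with 11 above 0 and 12 below. Of 6 genes with several probe sets that reached the median level, 4 (CAV1, CAV2, PACSIN2 and FLOT1) had these probe sets on the same side of 0, and 2 (CAVIN1 and EHD2) did not. With the arrays centred on the poly-A controls, added before labelling, which were 0.32 higher in ALDH high (SD 0.07 over 24 probe sets), the median of all genes moved to -0.32 and CAVIN3 (-0.28) and FLOT2 (-0.28) fell below 0. The part of RNA input or labelling in the smaller differences was not tested.

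**Figure D3:**
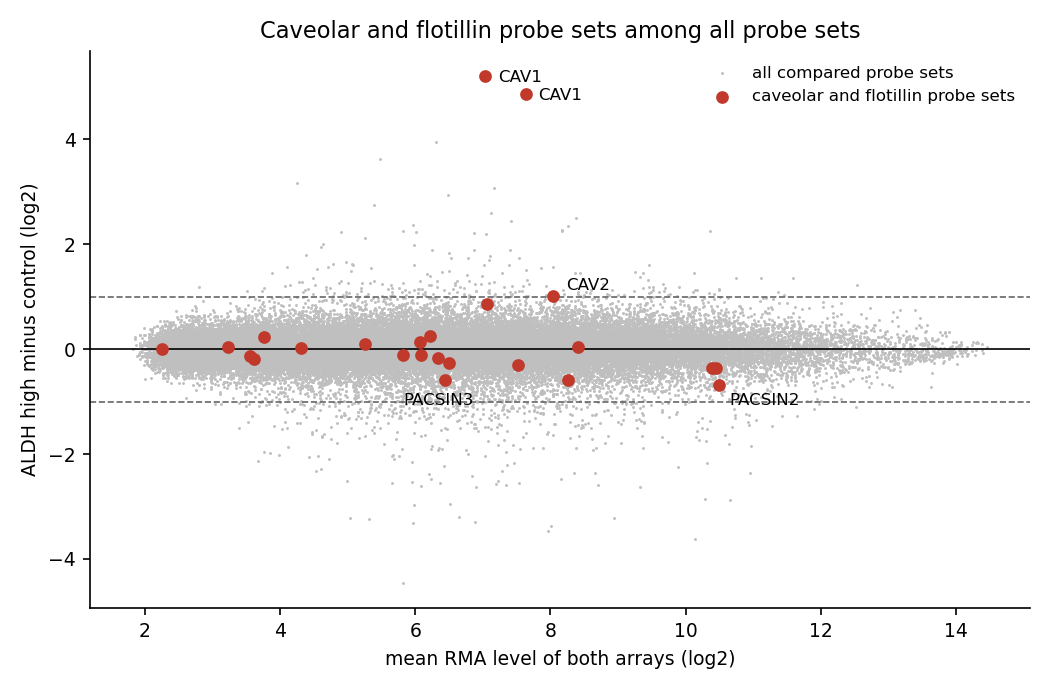
Difference (ALDH high minus control, log2) against the mean level of both arrays (log2) for all 54613 compared probe sets in grey and the 24 caveolar and flotillin probe sets in red, with dashed lines at 2-fold. The CAV1 points at 5.20 and 4.86 lie above every grey point, and most other red points lie inside the grey cloud.

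The genes around the caveolin pair did not differ as CAV1 did. The 10 nearest measured genes, 5 on each side, had a median difference of 0.03, with 5 above 0, 4 below and 1 equal on both arrays. TES, the nearest on the CAV2 side, which encodes the focal adhesion protein testin, had levels of 10.82 in ALDH high and 11.35 in control and differed by -0.53. The value came from the brightest of 3 TES probe sets, which ranged from -0.53 to 0.12. MET, the receptor of hepatocyte growth factor and the nearest on the CAV1 side, had levels of 12.00 and 11.67 and differed by 0.33, with its 4 probe sets from 0.17 to 0.57. CAPZA2, an actin capping protein subunit, differed by 0.06. Among these neighbours ST7-AS1, an antisense RNA, was the only one over 2-fold, at -1.02. Its control level of 4.51 and ALDH-high level of 3.49 were both dim. Of all genes, 0.465% were over 2-fold higher and 1.23% lower, and nothing is read from this count. The 6 remaining genes, MDFIC, LINC01393, LOC100506489, TFEC, ST7-OT4 and ST7-AS2, differed by -0.17 to 0.23.

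**Figure D4:**
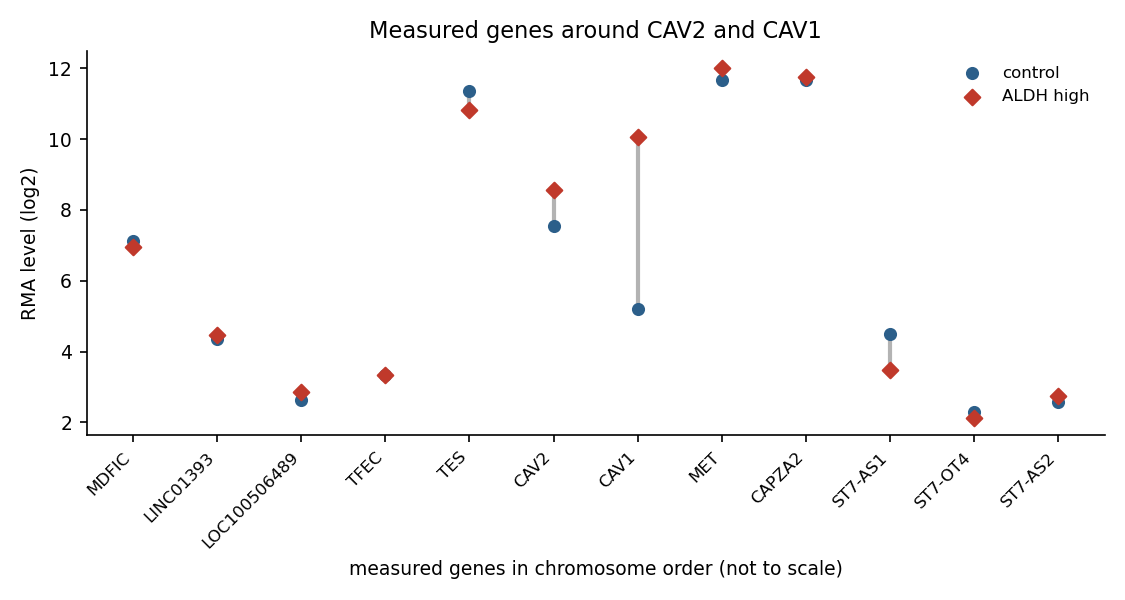
RMA levels (log2) of the measured genes around CAV2 and CAV1 in chromosome order, with control as blue circles and ALDH high as red diamonds. Vertical gaps within a gene are the differences, and levels of different genes are not comparable. The gap is 4.86 for CAV1 and 1.01 for CAV2, against 0.33 for MET and -0.53 for TES beside them.

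Of 8 measured coat, neck and linker genes outside the members, 0 were over 2-fold in either direction. Over all genes 0.465% were over 2-fold higher and 1.23% lower, the shares to set beside this and the later lists. The median was -0.04, with 3 above 0, 4 below and 1 equal. ROR1 and EHD3, both lower in ALDH high, were the 2 that differed by more than the pooled SD. A size near that of EHD3 was common, since 28.8% of all genes differed by as much as the member EHD2 (-0.27) or more. The ROR1 size was less usual, since 4.84% differed by as much as the member PACSIN2 (-0.68) or more. ROR1, a receptor tyrosine kinase-like protein that binds caveolin and cavin, differed most, with levels of 8.65 in ALDH high and 9.61 in control. Its 3 probe sets were all lower in ALDH high, by -0.96, -0.72 and -0.45. EHD3 differed by -0.28, whereas its paralogs EHD1 (0.01) and EHD4 (0.02) were level on their brightest probe sets. The muscle forms CAV3 (6.43 in ALDH high against 6.41 in control) and CAVIN4 (5.21 on both) were equal or nearly so.

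Relatives of the flotillins and the signalling proteins of raft membranes differed by less than 2-fold. Of 8 other SPFH genes 0 were over 2-fold, with 3 above 0, 5 below and a median of -0.10. Prohibitin PHB1 was at 0.31, with a second probe set at 0.36, and the stomatin-like gene STOML1 at -0.26. Of 12 raft-associated kinases and adaptors 0 were over 2-fold, with 4 above 0, 8 below and a median of -0.10. The Src family kinase FYN differed by -0.35, with all its probe sets below 0, and the adaptor PAG1 by 0.34 on a dim probe set.

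Receptors and enzymes reported in caveolae had a median of 0.03 over 13 genes, 7 above 0 and 6 below. CD36, a fatty acid receptor, was the only one over 2-fold, at -1.02, with levels of 5.66 in ALDH high and 6.68 in control and its other 4 probe sets dim and between -0.66 and -0.15. EGFR, the epidermal growth factor receptor, had levels of 8.80 in ALDH high and 8.16 in control and differed by 0.63. Its next brightest probe sets differed by 0.40 and 0.47, and all 9 EGFR probe sets ran from -0.17 to 0.63, with a mean of 0.22. Of 19 genes of clathrin-mediated endocytosis, the other main entry route at the plasma membrane, 0 were over 2-fold, with 6 above 0, 13 below and a median of -0.08. The adaptors EPN3 (-0.85) and EPS15 (-0.65) differed most, and the clathrin heavy chain CLTC by -0.01. Of 10 genes of membrane cholesterol and sphingolipid supply, 6 lay above 0 and 4 below, with a median of 0.04. ABCA1, which exports cholesterol from the cell, was over 2-fold lower at -1.79, from 5.74 in control to 3.95 in ALDH high, and its other probe sets, dim on both arrays, gave -2.04, -0.11 and -0.03. With 32 added to the unlogged levels, neither CD36 (-0.70) nor ABCA1 (-0.85) was over 2-fold. NPC2, which moves cholesterol out of lysosomes, differed by -0.98, with levels of 9.90 and 10.88 on its single probe set.

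Markers of the labelled cell type were above the median level on both arrays. The 7 measured neuroendocrine markers stood at percentile 61.6 or higher in ALDH high. They differed by -0.20 (CHGA, a granule protein) to 0.34 (INSM1, a transcription factor). Their summed level, the log2 of the added unlogged levels, was 14.87 in ALDH high and 14.94 in control. Such a sum is set mostly by the brightest markers, here SCG2 at 13.69 in ALDH high and 13.77 in control. It says little about the dimmer ones. The 6 epithelial markers stood at percentile 89.7 or higher on both arrays, with summed levels of 15.06 and 15.12, KRT19 at 0.60 on its brighter probe set and -0.08 on the other, and CDH1 at -0.23 and -0.47. These percentiles do not by themselves separate cell types, since the fibroblast marker COL1A1 stood at 71.8 in ALDH high and 74.5 in control and the smooth muscle marker TAGLN at 63.6 and 63.2, above the neuroendocrine SYP at 61.6 and 61.7. Markers of cell types rich in caveolae are given for description. Of the 26 markers of endothelial cells, adipocytes, fibroblasts and smooth muscle or pericytes, 0 were over 2-fold in either direction. Since only 0.465% of all genes were over 2-fold higher and 1.23% lower, a count of 0 would be usual for so few genes. The presence of such cells was not tested. The summed levels in ALDH high and control were 8.04 and 8.13 for 7 endothelial markers, 7.34 and 7.49 for 5 adipocyte markers, 8.27 and 8.47 for 7 fibroblast markers and 8.55 and 8.51 for 7 smooth muscle and pericyte markers. On the brightest probe sets the largest differences were VWF (-0.21) and CDH5 (-0.13), ADIPOQ (-0.35) and CIDEC (-0.35), FAP (-0.43) and COL3A1 (0.31), and ACTA2 (-0.42) and MYH11 (0.29). Other probe sets of some markers differed more. The 5 of the endothelial PECAM1 ran from -0.76 to 0.006, the 5 of COL1A1 from -0.72 to 0.08 and the 5 of COL3A1 from -0.52 to 0.45. The endothelial cadherin CDH5 and the fat cell hormone ADIPOQ were dim on both arrays, and 2 of 7 endothelial, 2 of 5 adipocyte, 2 of 7 fibroblast and 4 of 7 smooth muscle and pericyte markers reached the median level on at least 1 array.

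**Figure D5:**
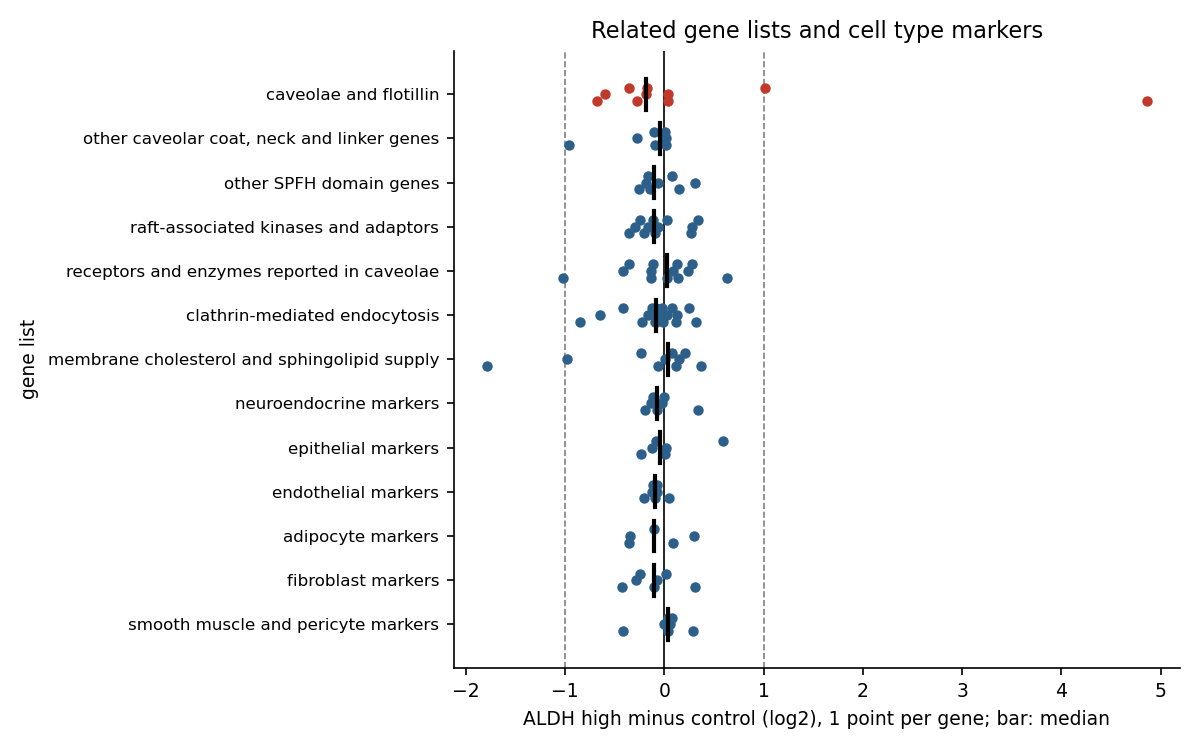
Differences (ALDH high minus control, log2) of the genes of each list, 1 point per gene on its brightest probe set, with the median as a black bar and dashed lines at 2-fold. The red list is the 10 caveolar and flotillin genes, with CAV1 at 4.86 and CAV2 at 1.01. ABCA1 (-1.79) and CD36 (-1.02) are the blue points beyond the lower 2-fold line.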

How the data were processed

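Total RNA of ALDH-high and of control QGP1 cells was labelled with a kit that primes from the 3' end and hybridised to 1 array each. The deposited values are log2 levels per probe set made by the authors with RMA, per the submitters' processing notes, which give no version. RMA equalises the overall distribution of the arrays, so a shift shared by most genes would not show. The table held 54675 probe sets, of which 62 Affymetrix controls were left out.

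From these the difference of the log2 levels was computed (Python 3.11.15, pandas 2.3.3), with no filter and no test. Gene symbols are those of the platform's GEO annotation. The suffixes _s_at and _x_at mark probe sets, 13 of the 24 here, that can bind more than 1 transcript. Members and lists were chosen with earlier results of these data known. Named were all members, in each list those over 2-fold (up to 4) and no fewer than 2, taken by size, the 5 genes on each side of the caveolin pair and the 3 genes nearest to CAV1. Others named for their role were chosen after their values were seen. List members without a probe set of their own were not analysed here. Promoter windows came from a RefSeq table of GRCh38.p14. The computation was run on simulated data with set differences, which checks the arithmetic only and says nothing about the results.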

Additional observations from a re-analysis of the deposited data

How the results depend on the processing

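CAV1 kept its direction and stayed over 2-fold under all 8 alternatives to its value of 4.86: it was 5.20 without shared-target probe sets or with the probe set of largest difference, 4.004 with the pseudocount, 4.55 centred on the poly-A controls, and within the pooled SD of its value otherwise. CAV2 moved to 0.63 as the mean of its probe sets and to 0.70 centred on the poly-A controls. The count of members over 2-fold higher was 1 in place of 2 with the mean, the median and no shared-target probe sets. It was also 1 with the pseudocount, the poly-A centring and a 3-fold threshold. In each of these settings CAV2 missed the threshold. At 1.5-fold the count of lower members was 2 (PACSIN2 and PACSIN3). The share of all genes past 1.5-fold was not computed, but 6.52% differed in either direction by as much as PACSIN3 (-0.60) or more. By difference PACSIN2 stood 611th and PACSIN3 795th from the lowest of 19775 genes. The median of the members was -0.50 centred on the poly-A controls and 0.02 without shared-target probe sets, which left 8 genes. PACSIN3 and FLOT1, which have only shared-target probe sets, and the dim CAVIN2 and CAVIN3 under the level filter, gave no value under those settings. No paired analysis was possible because each group had 1 array. The number of arrays limits the precision, and 7 of the 24 probe sets were dim on both arrays and could show little.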

Other observations

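The neighbours of the other 8 members were 5 measured genes on each side and 80 different genes in all. Of these, 0 were over 2-fold higher (0.465% of all genes) and 1 was over 2-fold lower (1.23% of all genes). Nothing is read from these counts, which are near the shares over all genes. The median difference around a member ran from -0.19 (CAVIN1) to 0.24 (EHD2). LRP4, an agrin receptor 3 places from PACSIN3 in the order of measured genes, had levels of 6.30 in ALDH high and 7.37 in control and differed by -1.08 on its single probe set, against -0.60 for PACSIN3. Of the genes directly beside PACSIN3, DDB2 differed by 0.47, and ARFGAP2 by 0.22 on its brighter probe set and -0.22 on the other. TTLL1, a tubulin-modifying enzyme near PACSIN2, had levels of 6.08 and 7.00 and differed by -0.92, against -0.68 for PACSIN2. IER3, an immediate early gene near FLOT1, had levels of 9.58 and 10.43 and differed by -0.84, while FLOT1 differed by -0.35. LRP4, TTLL1 and IER3 were picked after their values were seen, as those beyond 0.8 in size, and the genes beside PACSIN3 for their place.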
